A study of Mus musculus with 6 samples.

Results

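The respiratory chain is the set of enzyme complexes in the inner mitochondrial membrane that moves electrons from NADH and succinate to oxygen, and its nuclear-encoded genes were compared between sorted bone marrow cells of mouse. The genes were chosen by symbol: those beginning with Nduf, Uqcr, Cox4 to Cox8 or Atp5, together with Cyc1 and Sdha, Sdhb, Sdhc and Sdhd. This gave 89 of the 11489 genes in the deposited table, of which 44 belong to complex I by symbol (7 core subunits, 30 accessory subunits and 7 assembly factors named Ndufaf), 4 to complex II, 9 to complex III, 15 to complex IV and 17 to complex V. The symbols do not match the complexes in every case. Ndufa4 is now counted as a subunit of complex IV, Cox7a2l as a factor that joins complexes into supercomplexes, and Atp5s and Atp5sl encode proteins that are not subunits of the ATP synthase. GENCODE M21 places 87 of the 89 on nuclear chromosomes of GRCm38 under the same name, and it holds no single entry of that name for the other 2.

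Complexes I and II take electrons from NADH and from succinate and pass them to ubiquinone, complex III passes them on to cytochrome c, and complex IV reduces oxygen. Complexes I, III and IV pump protons, and complex V, the ATP synthase, lets the protons flow back through a rotating ring of c subunits to make ATP. Macrophages differ in how far they rely on this chain or on glycolysis, and maturing red cells lose their mitochondria.

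RNA was sequenced from bone marrow cells sorted for F4/80, a surface protein of mouse macrophages that Adgre1 encodes, and split by eGFP from a reporter of Epor, the erythropoietin receptor gene. The groups were F4/80+ Epor-eGFP+ (3 libraries) and F4/80+ Epor-eGFP- (3 libraries), and both are called erythroblastic island macrophages in the labels, which give no strain, age or treatment and do not say that libraries came from separate animals. P-values therefore measure only how these libraries vary, and that variation may be technical. Libraries are called by their column number, and 3 values given for a group, written as without or with eGFP, follow the order 0, 1, 2. The unit is FPKM, a fragment count divided by gene length and library size, and the depth behind the values is unknown. Every fold change below is a difference of log2(FPKM + 1), Epor-eGFP+ minus Epor-eGFP-, tested with limma over the 10964 genes that averaged 1 FPKM or more. Rose and fell are written of genes at a Benjamini-Hochberg adjusted p below 0.05.

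Epor was at 0.375, 0.414 and 0.217 FPKM without and 6.67, 3.43 and 7.78 with eGFP, and Adgre1 was between 117 and 241 FPKM in all 6. Markers of several cell types differed between the groups. All 13 island macrophage markers rose, with a summed level of 2464 to 9394 FPKM against 193 to 259, highest in Epor-eGFP+ library 2. Of 15 tested erythroid markers 12 rose and 1 fell (492 to 688 FPKM against 247 to 269), and all 5 early neutrophil markers such as Mpo and Elane rose (7868 to 9784 against 1513 to 2818). Of 13 late neutrophil markers 12 fell (13275 to 17245 FPKM against 25120 to 39402), as did all 10 monocyte markers (1405 to 1736 against 3364 to 4751) and 5 of 8 eosinophil markers, of which 1 rose. The 6 B lineage markers had no call, and of 4 tested T and NK markers 3 fell and 1 rose. No marker of these lists was listed at 0 in a library, except 1 of the eosinophil list. In sorted bulk RNA, fewer cells of a type and less RNA per cell cannot be told apart, and the part of these differences in the results below was not tested.

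Genes of the respiratory chain were mostly higher in Epor-eGFP+ cells, by small amounts. Of the 88 members tested, 39 rose (44.3%), 5 fell (5.68%) and 44 had no call. Of all tested genes 22.7% rose and 26.3% fell, 49.0% together. The counts by complex and by list below are to be read beside these shares. The median log2 fold change was 0.20, against −0.01 over all tested genes. None of the called members reached an absolute log2 fold change of 1 on the log2(FPKM + 1) scale, and 13 of the 39 rose by at least 0.5. The added 1 shrinks changes of low values. As a ratio of mean FPKM, Epor-eGFP+ over Epor-eGFP-, Atp5s stood at 2.03 and Cox7a1 at 0.446, both at low levels. The groups did not overlap in 45 members with Epor-eGFP+ higher (51.1%, against 28.4% of all tested genes) and in 9 with Epor-eGFP+ lower (10.2%, against 31.9%), where 60.4% of all tested genes had groups apart in either direction. The summed FPKM of the 89 members was 7955, 8293 and 8995 without and 9573, 9120 and 9591 with eGFP. The sums did not overlap, and the lowest Epor-eGFP+ library stood just above the highest Epor-eGFP- library. As a share of all FPKM in a library they made up 1.53% to 1.74% and 1.91% to 2.04%.

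The size of the shift depended on the scaling between libraries and on single libraries, and the median stayed above 0 in all 15 alternatives. After rescaling the libraries to a shared total, 54 members rose and 4 fell, beside 27.9% and 19.0% of all tested genes. With quantile normalization these counts of members were the same, beside 22.5% and 26.5%, and with the replicate block, a term for the column number, 42 rose and 5 fell, beside 28.0% and 30.4%. Without Epor-eGFP+ library 0, 24 members rose and 3 fell, beside 14.7% and 18.8% of all tested genes.

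**Figure D1:**
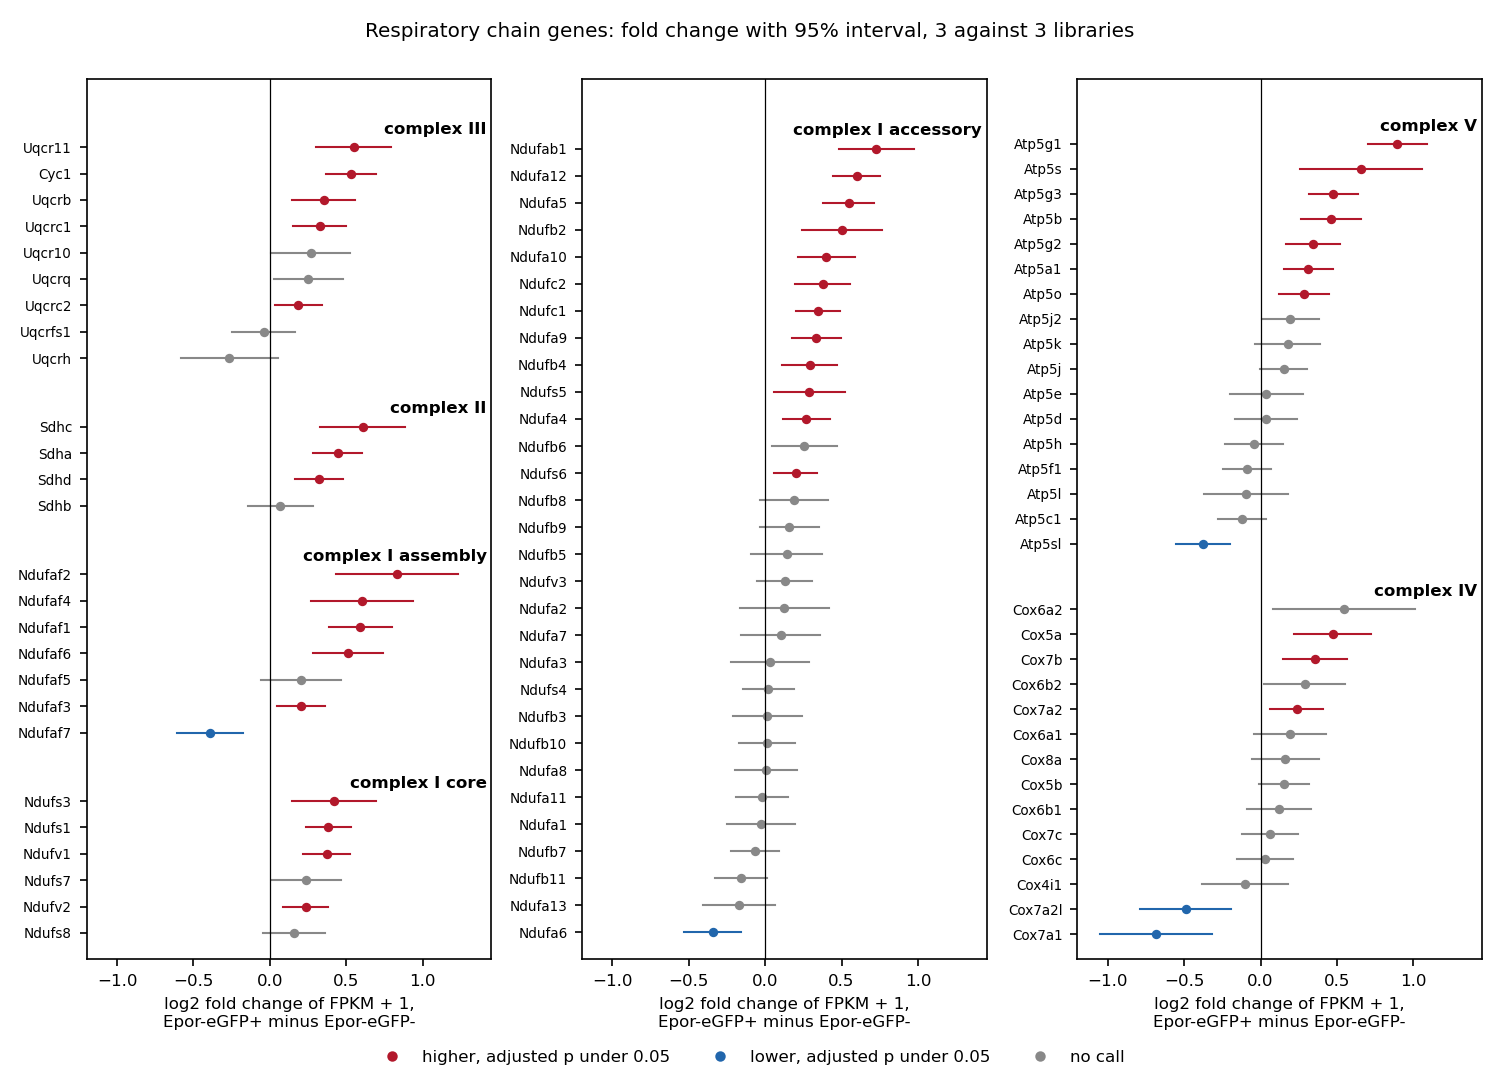
Log2 fold change of FPKM + 1 (x axis, Epor-eGFP+ minus Epor-eGFP-) for 87 tested members, by complex, with points for the estimate and lines for its 95% interval from limma. Red points rose, blue points fell and grey points had no call. Most points lie right of 0, with Atp5g1 farthest right at 0.90 and Cox7a1 farthest left at −0.68.

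Complex I, the NADH dehydrogenase, has a catalytic core of 7 nuclear-encoded subunits, and 4 of these rose while 3 had no call (median 0.24). Ndufv1 carries the site where NADH is oxidised, and it was at 43.8, 46.1 and 46.9 FPKM without and 61.7, 59.0 and 57.1 with eGFP (log2 fold change 0.37, SE 0.07, limma adjusted p = 0.00438). Ndufs1, an iron-sulfur subunit beside it, rose from 25.6 ± 0.521 FPKM to between 33.1 and 34.8 (mean ± SD, n = 3; 0.38, SE 0.06, limma adjusted p = 0.00317). In neither gene did the groups overlap. Ndufs3, of the arm that leads to the ubiquinone site, rose by 0.42 (SE 0.12), but lost the call without Epor-eGFP- library 0 or 1 or Epor-eGFP+ library 0 or 2. Ndufv2 (0.24) lost its call without Epor-eGFP- library 0 or Epor-eGFP+ library 0 or 1. Ndufs7 had no call (limma adjusted p = 0.0754) and passed in 5 of the 15 alternatives, among them the replicate block (0.0389).

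Accessory subunits surround this core, and of 30 such genes 12 rose and 1 fell, and the other 17 were not called (median 0.15). Their mean levels over the 6 libraries ran from 13.3 FPKM for Ndufa11 to 181 for Ndufa4. Ndufab1 is the mitochondrial acyl carrier protein, which also serves fatty acid and lipoic acid synthesis. It was at 27.2, 34.9 and 28.1 FPKM without and 48.8, 49.8 and 52.0 with eGFP (0.73, SE 0.10, limma adjusted p = 0.00197), with every Epor-eGFP+ library above every Epor-eGFP- library. Ndufa12 was at 31.3 ± 1.14 FPKM without and 48.0 ± 1.80 with eGFP (0.60, SE 0.07, limma adjusted p = 0.000880), and its libraries lay close together within each group. Ndufa5 rose by 0.55 (SE 0.07). Ndufa6, a LYR-motif protein of the matrix arm that binds Ndufab1, went the other way, at 106, 103 and 120 FPKM in Epor-eGFP- and 87.3, 85.7 and 85.3 in Epor-eGFP+ (−0.34, SE 0.08, limma adjusted p = 0.0110), without overlap. Its call was lost with a common total (adjusted p = 0.0519). The ratio of Ndufa12 to Ndufa6, a pair chosen after their values were seen, was 0.253 to 0.316 in Epor-eGFP- and 0.547 to 0.573 in Epor-eGFP+. Ndufa4 rose by 0.27 (SE 0.06) and lost the call without Epor-eGFP- library 0 or Epor-eGFP+ library 0. Ndufs5 (0.29) lost its call in 6 of the 15 alternatives, which were the replicate block (limma adjusted p = 0.0604), the fit with no trend and the fits without Epor-eGFP- library 0 or 1 or Epor-eGFP+ library 0 or 2. The call of Ndufb4 (0.29) was lost without library 0 of either group, and that of Ndufs6 (0.20) when each of the 6 libraries was left out in turn.

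Assembly factors build complex I without staying in it, and they were present at far lower levels, with means from 2.27 to 13.1 FPKM. Of 7 Ndufaf genes, 5 rose and 1 fell, and Ndufaf5 had no call (median 0.51). Ndufaf2, which stands in for Ndufa12 during assembly, was at 6.94 ± 1.84 FPKM without and 12.9 ± 1.39 with eGFP (0.83, SE 0.17, limma adjusted p = 0.00690). Library 1 was highest in both groups, and the groups did not overlap. Ndufaf4 rose from 1.69 ± 0.321 to 3.09 ± 0.520 FPKM (0.60) and Ndufaf1 from 4.82 ± 0.386 to 7.77 ± 0.421 (0.59), and Ndufaf4 lost the call without Epor-eGFP+ library 0. Ndufaf3 had the highest level and rose by 0.20, a call that was lost when each of the 6 libraries was left out in turn. Ndufaf7, a mitochondrial methyltransferase, fell from 10.8 ± 1.19 to 7.95 ± 0.297 FPKM (−0.39, SE 0.09), a call that was lost without Epor-eGFP+ library 0. Because these values are low, the log2(FPKM + 1) scale understates their change.

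Complex II, succinate dehydrogenase, works in both the citrate cycle and the chain, and 3 of its 4 genes rose. Sdhc, a membrane anchor that holds heme and ubiquinone, was at 47.1, 53.2 and 55.2 FPKM without and 80.3, 68.6 and 90.5 with eGFP (0.61, SE 0.12, limma adjusted p = 0.00567). Sdha, the flavoprotein that oxidises succinate, was at 77.8, 82.6 and 75.8 FPKM against 107, 104 and 111 (0.45, SE 0.07, limma adjusted p = 0.00245). Sdhd, the other anchor, rose by 0.32 (SE 0.07). All 3 were free of overlap between the groups. Sdhb, the iron-sulfur subunit, was at 78.1 ± 6.85 against 82.0 ± 5.62 FPKM and had no call, with a 95% interval of its log2 fold change from −0.14 to 0.28. The ratio of Sdhc to Sdhb within a library, a pair chosen after their values were seen, was 0.645 to 0.692 in Epor-eGFP- and 0.895 to 1.03 in Epor-eGFP+.

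In complex III, 5 of 9 genes rose (55.6%, beside 22.7% of all tested genes) and 4 were not called (median 0.27). Cyc1, cytochrome c1, which hands electrons to cytochrome c, was at 67.4 ± 3.19 FPKM without and 97.7 ± 3.24 with eGFP (0.53, SE 0.07, limma adjusted p = 0.00143). Uqcr11, a small membrane subunit, was at 65.0, 78.4 and 81.9 FPKM against 117, 104 and 109 (0.55, SE 0.10, limma adjusted p = 0.00538). Both genes were higher in each Epor-eGFP+ library than in any Epor-eGFP- library. Uqcrb rose by 0.35 (SE 0.09) and lost the call without Epor-eGFP+ library 0, as did Uqcrc1 (0.33). Uqcrc2 (0.19) lost its call in 6 of the 15 alternatives. These were the fit with no trend and each fit that left out a library, except Epor-eGFP+ library 2. The Rieske iron-sulfur protein gene Uqcrfs1 had a log2 fold change of −0.04 (95% interval −0.24 to 0.16). Uqcrh, the hinge protein and the gene with the highest level in this complex, was at 191, 178 and 248 FPKM against 175, 156 and 177, with no call (−0.27, limma adjusted p = 0.141). Its groups did not overlap, and Epor-eGFP- library 2 was the highest of the 6.

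**Figure D2:**
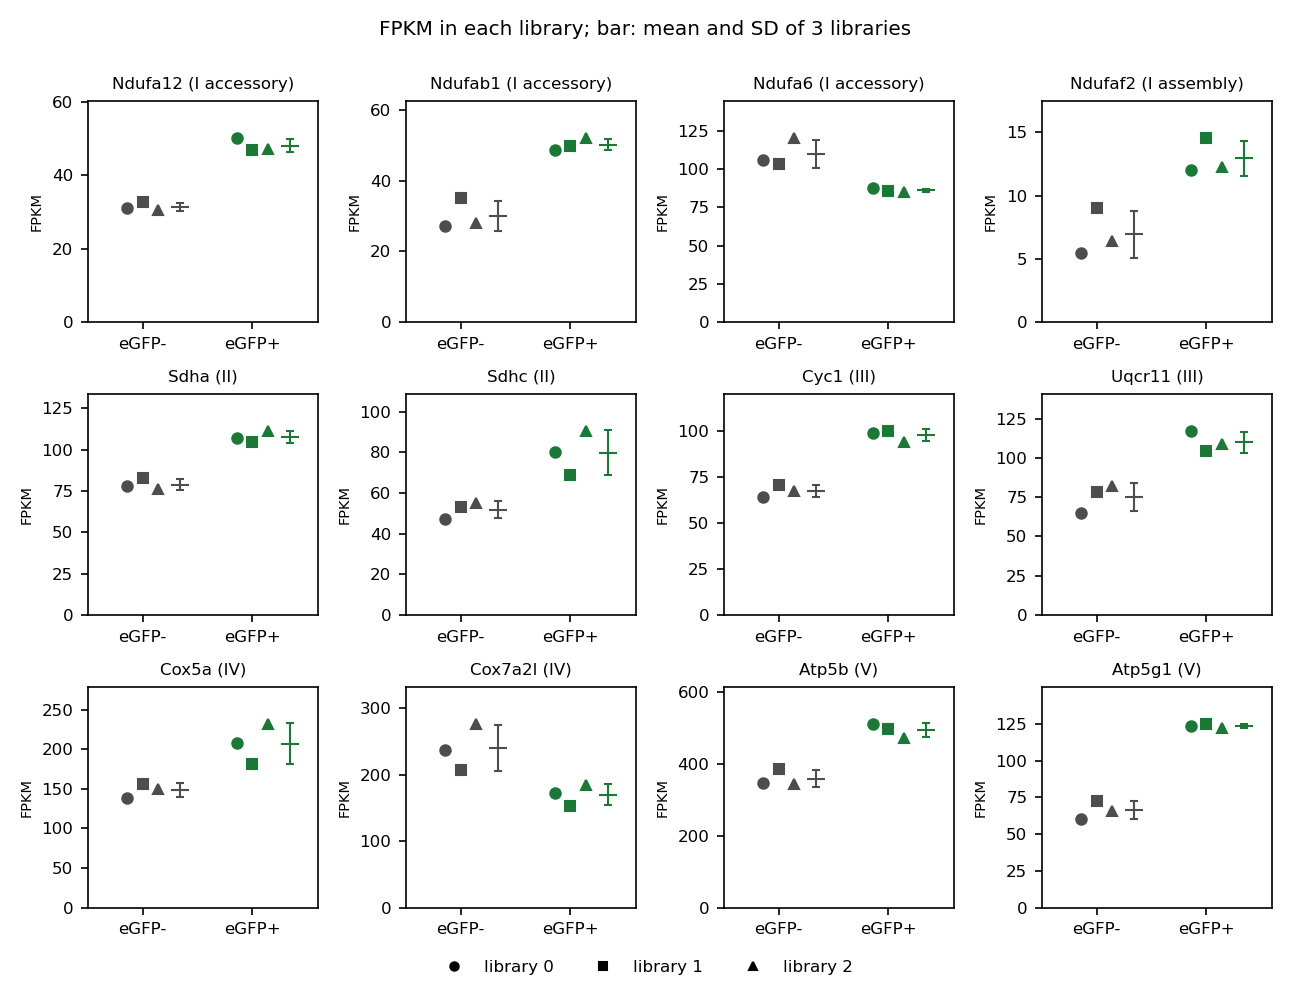
FPKM (y axis, from 0) of 12 members in each library of the Epor-eGFP- and Epor-eGFP+ groups, with symbols for library numbers 0, 1 and 2 and a bar for the mean and SD of 3 libraries. The groups are apart in every panel, with Epor-eGFP+ lower for Ndufa6 and Cox7a2l and higher for the other 10.

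In complex IV, cytochrome c oxidase, 3 of 14 tested genes rose and 2 fell (21.4% and 14.3%, beside 22.7% and 26.3% of all tested genes), with a median of 0.16. The share that rose was thus near that of all genes. The summed FPKM of its 15 genes overlapped between the groups, at 1980 to 2304 in Epor-eGFP- and 2089 to 2328 in Epor-eGFP+. Cox5a, an early assembling subunit, was at 138, 157 and 150 FPKM without and 208, 181 and 232 with eGFP (0.47, SE 0.11, limma adjusted p = 0.0106), without overlap. Cox7b rose by 0.36 (SE 0.09), a call lost without library 0 of either group. Cox4i1, the most abundant gene of the complex, was at 347 ± 48.9 against 322 ± 24.6 FPKM (−0.10, limma adjusted p = 0.502), and its sign turned under quantile normalization and without Epor-eGFP- library 2.

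Several complex IV subunits exist as a common form and a form restricted to some tissues, and in the Cox4, Cox6a and Cox6b families the common form made up 93.1% or more of the summed FPKM in every library. Cox4i2, the form of Cox4 known from lung and from low oxygen, was below the level tested, at 0.137, 0.354 and 0.202 FPKM without and 1.06, 0.846 and 3.21 with eGFP. It was highest in Epor-eGFP+ library 2, and its share of the summed Cox4 FPKM was at most 0.925%. Every gene in the deposited table had a highest value of at least 1.001 FPKM. Cox4i2 reached that only in Epor-eGFP+ libraries, so it is listed through that group alone and its difference is given without a test. Cox6a2, the heart and muscle form, was at 0.920 ± 0.270 against 1.83 ± 0.621 FPKM, with an adjusted p of 0.0554, and 0.0129 with the replicate block. Cox6b2, known from testis, was at 12.9 ± 1.07 against 16.1 ± 2.11 FPKM with no call, beside Cox6b1 at 224 ± 20.7 against 243 ± 9.25. Cox6a1 (279 ± 27.7 against 319 ± 22.2 FPKM) and Cox8a (274 ± 17.6 against 307 ± 25.1) had no call either. Other Cox8 forms and Ndufa4l2 were searched by symbol and not found in the deposited table, so they could not be analysed.

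Genes of the Cox7a family, all placed with complex IV by symbol, moved in different directions. Cox7a2l was at 237, 207 and 277 FPKM without and 172, 153 and 184 with eGFP (−0.49, SE 0.13, limma adjusted p = 0.0169). Each Epor-eGFP+ library was lower than each Epor-eGFP- library. Cox7a2, its paralog that sits in complex IV itself, was at 59.4, 68.0 and 64.3 FPKM against 73.9, 77.0 and 75.1 (0.24, SE 0.07, limma adjusted p = 0.0333). Cox7a1, the muscle form, was low and fell from 2.16 ± 0.479 to 0.961 ± 0.260 FPKM (−0.68, SE 0.15). The share of Cox7a2l in the summed FPKM of the 3 genes was 78.2% ± 3.26 in Epor-eGFP- and 68.9% ± 2.31 in Epor-eGFP+, and that of Cox7a2 was 21.1% ± 3.03 and 30.7% ± 2.37, neither with overlap. The call of Cox7a2l was lost under quantile normalization (adjusted p = 0.0518), without Epor-eGFP- library 0 (0.0530) and without Epor-eGFP+ library 0 (0.0524). That of Cox7a2 was lost in 5 of the 6 fits that leave out a library. Cufflinks, named in the submitters' processing notes, splits reads that fit several genes by an estimate, which leaves single values of these paralogs, and of members with processed pseudogenes, uncertain.

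Complex V, the ATP synthase, had 7 genes that rose, 1 that fell and 9 without a call among 17 (median 0.18), and all genes of its c ring were among those that rose. The c subunit is encoded by 3 genes whose proteins differ in the import signal and are the same once imported. Atp5g1, on chromosome 11 from 96068852 to 96075670 (GRCm38, minus strand), was at 60.5, 72.5 and 65.6 FPKM without and 124, 125 and 122 with eGFP. This was the largest rise among the members on the log2(FPKM + 1) scale (0.90, SE 0.08, limma adjusted p = 0.000549), and the Epor-eGFP+ libraries were nearly alike. As a ratio of mean FPKM it was 1.87, below the 2.03 of Atp5s, a called gene at a low level. Atp5g3, on chromosome 2 from 73908447 to 73911326, was at 171, 180 and 183 FPKM against 253, 240 and 252 (0.48, SE 0.07, limma adjusted p = 0.00205). Atp5g2, on chromosome 15 from 102662864 to 102672352, was at 202, 208 and 226 FPKM against 275, 262 and 269 (0.34, SE 0.07, limma adjusted p = 0.00920). The groups did not overlap in any of the 3 genes, and each kept its call in all 15 alternatives.

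The 3 genes together reached 434, 460 and 475 FPKM without and 652, 627 and 643 with eGFP. Within that sum the share of Atp5g1 was 13.9%, 15.8% and 13.8% against 19.0%, 19.9% and 19.0%. The share of Atp5g2 was lower in Epor-eGFP+ (41.9% ± 0.251 against 46.4% ± 1.22), and that of Atp5g3 overlapped between the groups (38.8% ± 0.420 against 39.1% ± 0.424). A factor applied to a whole library leaves such shares as they are, and the shares were not computed with quantile normalization.

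**Figure D3:**
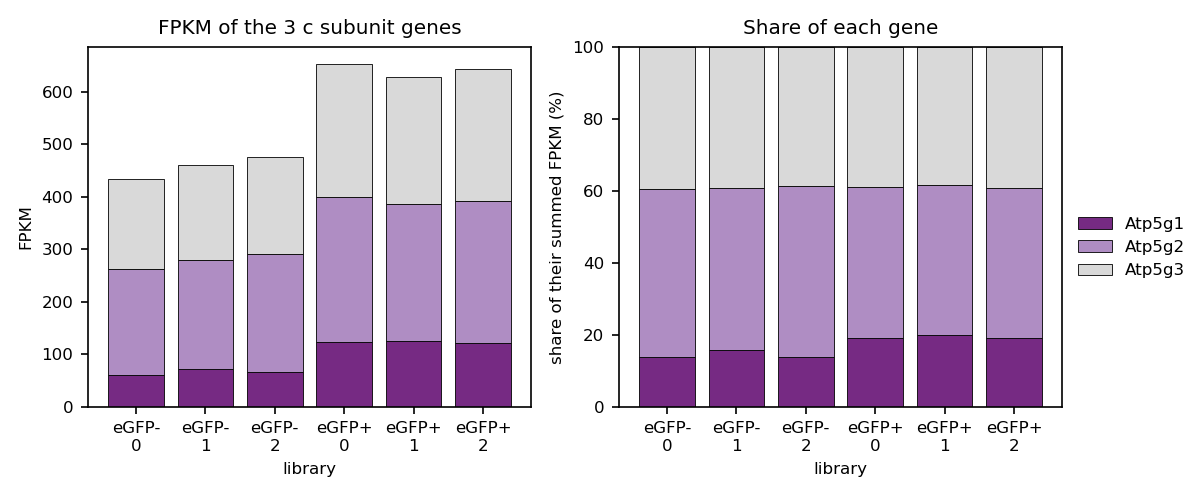
Stacked FPKM of Atp5g1, Atp5g2 and Atp5g3 in each library (left, y axis in FPKM) and the share of each gene in their sum (right, y axis in percent). The Epor-eGFP+ bars are taller, between 627 and 652 FPKM against 434 to 475, and the Atp5g1 share lies at 19.0% to 19.9% against 13.8% to 15.8%.

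The promoters of the c subunit genes are shown because the genes rose together by different amounts. Each sequence runs from 250 bases before the annotated start to 30 after it, on the minus strand of GRCm38.p6 (RefSeq), at chr11:96075602-96075881 for Atp5g1, chr15:102671018-102671297 for Atp5g2 and chr2:73911297-73911576 for Atp5g3. The Atp5g2 window lies wholly inside the gene as GENCODE M21 places it, up to 102672352. The Atp5g1 and Atp5g3 windows span the ends of their genes, at 96075670 and 73911326, so the windows compared are not placed alike. Capitals mark matches to motifs of factors known to act on respiratory chain genes, searched on both strands: GCGCNTGCG for NRF1, CCGGAAGT for GABPA, AAGATGGCG for YY1 and TCAAGGTCA for ESRRA. These letters were set after longer forms of the NRF1 and YY1 motifs had been counted.
Atp5g1: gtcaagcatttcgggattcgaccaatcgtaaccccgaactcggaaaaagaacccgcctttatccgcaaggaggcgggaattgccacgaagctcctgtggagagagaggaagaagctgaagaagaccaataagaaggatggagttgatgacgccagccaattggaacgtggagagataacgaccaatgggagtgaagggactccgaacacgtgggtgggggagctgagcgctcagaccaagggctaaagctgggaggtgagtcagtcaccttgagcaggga
Atp5g2: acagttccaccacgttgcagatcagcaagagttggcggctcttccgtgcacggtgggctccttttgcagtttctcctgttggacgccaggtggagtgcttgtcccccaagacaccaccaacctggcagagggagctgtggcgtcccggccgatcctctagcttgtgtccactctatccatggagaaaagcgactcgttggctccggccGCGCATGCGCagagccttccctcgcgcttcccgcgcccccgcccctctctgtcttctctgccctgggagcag
Atp5g3: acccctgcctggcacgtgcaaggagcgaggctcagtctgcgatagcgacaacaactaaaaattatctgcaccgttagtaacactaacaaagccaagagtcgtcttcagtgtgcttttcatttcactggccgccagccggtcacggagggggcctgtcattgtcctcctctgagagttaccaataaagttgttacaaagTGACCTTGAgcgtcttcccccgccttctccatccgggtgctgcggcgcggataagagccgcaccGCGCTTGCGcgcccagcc
Atp5g2 and Atp5g3 each hold the NRF1 letters, Atp5g2 on both strands at the same place, and Atp5g3 also holds a match for ESRRA in reverse. Atp5g1, which rose most, holds none of these letters in this window.

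RefSeq promoter windows of 300 bases were found for 74 of the 89 members, 3 of them under a newer symbol. Among those with no matched entry were Atp5a1, Cox4i1, Cox4i2, Cox6a2, Cox6c, Cyc1, Ndufa2, Ndufaf6, Ndufb9, Ndufs1, Sdhc, Uqcrb, Uqcrc2 and Uqcrq. The NRF1 letters were in 28 of 80 member windows, against 6.31% of all 32851 windows and 13.7% of the windows of tested genes. The other motifs were in 5 of 80 (GABPA, 8.50% of windows of tested genes), 9 of 80 (YY1, 3.29%) and 2 of 80 (ESRRA, 0.287%). Matches of different motifs overlapped in 0 member windows. Counted by gene, the NRF1 letters were in 13 of 32 members that rose, 2 of 5 that fell and 11 of 37 without a call. The stretches below are shown because they carry the same motif, in capitals, in members that rose (Ndufa5, Sdhd, Uqcrc1), in a member that fell (Ndufa6) and in a member without a call (Ndufa11), at chr6:24527697-24527725, chr9:50603909-50603937, chr9:108936643-108936671, chr15:82354250-82354278 and chr17:56717692-56717720 in this order.
Ndufa5: gtgtgagctgCGCAGGCGCaaatctacct
Sdhd: cgctggggtgCGCACGCGCggtggcagcg
Uqcrc1: cttccttacaGCGCTTGCGcctcagactc
Ndufa6: ccgtggcaccGCGCGTGCGcacgctgaag
Ndufa11: cctgcactgcGCGCATGCGcgcacgcctt
Uqcrc1 and Ndufa11 are read on the plus strand and the other 3 on the minus strand. A match is a description of the letters in the window and not of binding.

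The catalytic head of the ATP synthase is built of alpha and beta subunits around a central stalk. Atp5b, the beta subunit that makes ATP and the gene with the highest level of all members, was at 346, 386 and 345 FPKM without and 512, 499 and 472 with eGFP (0.46, SE 0.08, limma adjusted p = 0.00460). Atp5a1, the alpha subunit, rose from 290.2 ± 6.77 to 361 ± 7.31 FPKM (0.31, SE 0.07), and neither gene overlapped between the groups. The central stalk genes Atp5c1 (−0.12, 95% interval −0.28 to 0.04), Atp5d (0.04, −0.17 to 0.24) and Atp5e (0.04, −0.20 to 0.28) had no call. The ratio of Atp5b to Atp5c1, a pair chosen after their values were seen, lay between 1.91 and 2.29 without and between 2.94 and 3.25 with eGFP. Of the 4 peripheral stalk genes only Atp5o, which ties the stalk to the head, rose (0.28), and it lost the call without library 0 of either group. None of the 3 small membrane subunits with an Atp5 symbol was called. Of these, 2, Atp5k and Atp5j2, were called with the replicate block (limma adjusted p = 0.0380 and 0.0489). Usmg5 and 2010107E04Rik, small genes of complex V without such a symbol, are counted below with the genes outside the symbols. Usmg5 rose by 0.28 (limma adjusted p = 0.0217), a call lost without library 0 of either group, and 2010107E04Rik had no call (0.19).

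Both members with an Atp5 symbol that are not ATP synthase subunits were called. Atp5s was at 1.25 ± 0.397 against 2.54 ± 0.527 FPKM (0.66, SE 0.17), a call lost without Epor-eGFP- library 0 or 2 or Epor-eGFP+ library 0. Atp5sl, a factor in complex I assembly, fell from 16.5 ± 0.927 to 12.5 ± 0.587 FPKM (−0.38, SE 0.07, limma adjusted p = 0.00639) and kept the call in all 15 alternatives.

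Genes that build, feed or belong to the complexes but fall outside the symbols were counted apart. Of 58 such assembly, carrier and supercomplex genes tested, 29 rose, 1 fell and 28 were not called, with a median of 0.28. Without Epor-eGFP+ library 0, 19 of these genes rose, beside 14.7% of all tested genes. With all 6 libraries, 22.7% of all tested genes rose and 26.3% fell, to be set beside the list counts that follow. Among 9 further complex I factors 6 rose, led by Nubpl, which inserts iron-sulfur clusters (0.91), Aifm1 (0.69) and Ecsit (0.61). Of 4 complex II factors Sdhaf4 rose (0.58), and of 5 for complex III Bcs1l, which installs the Rieske protein (0.43), Uqcc1 (0.41) and Uqcc2 (0.31), the last of which lost the call in 5 of the 6 fits that leave out a library. Of 22 for complex IV 8 rose, among them Lrpprc, which stabilises mitochondrial messenger RNA (0.62), Cox10, which makes heme for the oxidase (0.45), and Cox18 (0.38), which lost the call without Epor-eGFP+ library 0. Without that library only 3 of these 22 rose, near the 14.7% of all tested genes. Of 6 genes for complex V, which include small subunits as well as assembly factors, 4 rose. Atpif1, the inhibitor of ATP hydrolysis by the synthase, was at 35.4, 40.4 and 36.6 FPKM without and 76.3, 61.1 and 66.4 with eGFP (0.84, limma adjusted p = 0.00114). Tmem70 (0.43) and Atpaf1 (0.42) rose as well, and Atpaf1 lost the call without Epor-eGFP- library 0 or 2 or Epor-eGFP+ library 0. Stoml2 (0.46) rose in the supercomplex list of 4, where Cox7a2l fell.

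Carrier genes, among them entry points to ubiquinone other than complexes I and II, differed in direction. Of 9 carrier genes 6 rose and 1 fell (66.7% and 11.1%, beside 22.7% and 26.3% of all tested genes). Cycs, cytochrome c, and Coq7 are not entry points and were among the 6. Cycs (0.30, limma adjusted p = 0.0480) lost its call in 5 of the 15 alternatives, with no trend and without library 0 or 1 of either group. Etfb, a subunit of the flavoprotein that takes electrons from fatty acid oxidation, was at 103, 109 and 103 FPKM without and 211, 185 and 233 with eGFP (0.98, SE 0.10, limma adjusted p = 0.000667). Coq7, an enzyme of ubiquinone synthesis, rose by 0.66. Sqrdl, which oxidises sulfide and passes its electrons to ubiquinone, was at 83.3, 68.7 and 77.4 FPKM against 37.0, 32.6 and 36.8 (−1.08, SE 0.09, limma adjusted p = 0.000502). Neither Etfb nor Sqrdl overlapped between the groups, and both kept their call in all 15 alternatives.

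Regulators of these genes had calls in both directions. Of 15 tested, 6 rose and 4 fell (40.0% and 26.7%, beside 22.7% and 26.3% of all tested genes), with a median of 0.04. The share that fell was thus near that of all genes. Myc rose from 20.9 ± 6.01 to 41.6 ± 6.71 FPKM (0.99), Pprc1, a coactivator, from 6.14 ± 0.669 to 10.6 ± 0.709 (0.70) and Tfb1m, a methyltransferase of mitochondrial ribosomal RNA, by 0.60. Peo1 (0.51), Ppargc1b (0.47) and Polrmt (0.41), named here after their values were seen, rose as well. Peo1 lost the call without Epor-eGFP+ library 0 and Ppargc1b with quantile normalization. The 4 that fell, all named here after their values were seen, were Nrf1 (18.8 ± 0.943 to 15.2 ± 1.14 FPKM, −0.29), Gabpb1 (−0.28), Gabpb2 (−0.33) and Esrra (24.4 ± 2.49 to 18.6 ± 1.86 FPKM, −0.37). With a common total none of these 4 passed, at limma adjusted p from 0.0665 for Esrra to 0.150 for Gabpb1, where 19.0% of all tested genes fell. Each of the 4 also lost the call without Epor-eGFP- library 0. Without Epor-eGFP+ library 0 only 1 regulator fell, where 18.8% of all tested genes did. With the replicate block 5 of the 15 fell, beside 30.4% of all tested genes. The gene added was Polg (limma adjusted p = 0.0578, and 0.0196 with the block), named here after its values were seen. The 13 genes of the chain encoded by mitochondrial DNA were searched by symbol, and 0 were found in the deposited table, so they could not be analysed.

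Ribosomal protein genes and cell cycle genes were counted in the same way. Of 77 tested genes of the mitochondrial ribosome, 48 rose and 2 fell (62.3% and 2.60%, median 0.32). Of 79 tested genes of the cytosolic ribosome, 15 rose and 0 fell (median 0.10). Among all tested genes 22.7% rose, a share that the cytosolic ribosome (19.0%) did not reach, and 26.3% fell. The fold change was above 0 in 62 of the 79 cytosolic genes, and in 48.9% of all tested genes. Without a library in turn, 8 to 19 of the cytosolic genes rose, with 8 when Epor-eGFP- library 0 or Epor-eGFP+ library 0 or 1 was left out. Of 18 cell cycle genes 4 rose and 0 fell (22.2% rose, median 0.33). With the replicate block 13 of these 18 rose, and without Epor-eGFP+ library 0, 2 rose. The members had a median of 0.20, and the differences between these lists were not tested.

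**Figure D4:**
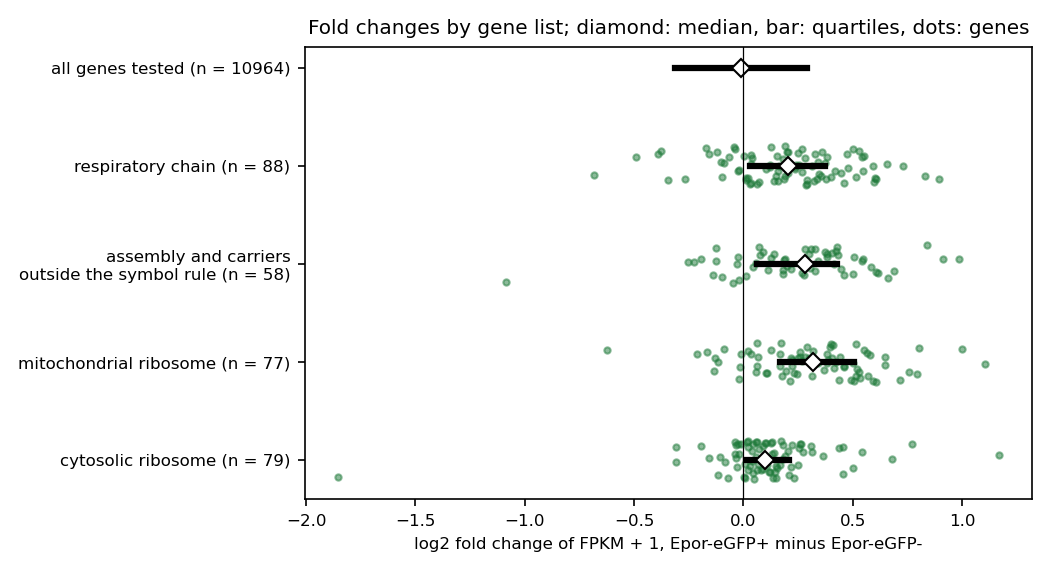
Log2 fold changes of FPKM + 1 (x axis) for all tested genes and 4 gene lists (y axis), with dots for genes, diamonds for medians and bars for the quartiles. Dots are not drawn for all tested genes. Medians run from −0.01 over all tested genes and 0.10 for the cytosolic ribosome to 0.20 for the respiratory chain, 0.28 for its assembly and carrier genes and 0.32 for the mitochondrial ribosome.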

How the data were processed

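RNA was measured in 6 libraries, 3 per group. Per the labels' protocols, libraries were made from total RNA of sorted cells with a TruSeq kit. The deposited values are FPKM made by the authors, and the submitters' processing notes name, without their roles, Cufflinks 2.2.1, TopHat2 2.1.0, Trimmomatic 0.35, bcl2fastq 2.19.1.403 and the build mm10. For the annotation and for scaling across libraries, the method is not given in the sources used here. Columns are numbered 0 to 2 and labels 1 to 3, so each column has a group but no sample of its own. Library totals ran from 467176 to 519650 FPKM. No gene listed had a highest value below 1.001 FPKM, and Epor and Cox4i2 reached that level in Epor-eGFP+ libraries only.

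Genes averaging 1 FPKM or more were fitted with limma 3.58.1 in R 4.3.3 on log2(FPKM + 1) with a term for group alone, eBayes with a mean-variance trend, two-sided tests and Benjamini-Hochberg adjustment over 10964 genes (threshold 0.05). Of the members, Cox4i2 did not reach the minimum. Same-numbered libraries deviated together from their group means (correlations 0.252, 0.377 and 0.348, each over the limit of 0.1 set for pairing), although no label says what the numbers mark, and a fit with the number as a replicate block was an alternative. Other alternatives changed the scaling, the pseudocount (0.1), the minimum (none or 5 FPKM) or the trend, or left out a library. Rescaling by median ratios was chosen after seeing the data. A naming rule took, per complex, up to 3 members that rose most, up to 3 that fell most, the gene with the highest level, and isoform families. In other lists it took up to 3 called genes with the largest change. Not every gene named was picked by it. Outside it are Sdhb, Uqcrfs1, Atp5c1, Atp5d, Atp5e and Ndufs7, which had no call and stand beside genes that rose. Others outside it include Atp5a1, Atp5o, Ndufs5, Ndufv2, Uqcrc1 and Uqcrc2, and in other lists Usmg5 and Cycs. The members, lists and rules were chosen with earlier results of these data known. From the cytosolic ribosomal list, chosen by symbol, 12 matching symbols of kinases, a binding protein and pseudogenes were left out after the list was seen. The fit was tested on simulated data. A member that the rule would name is not reported here, and it stays in the fits and counts.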

Additional observations from a re-analysis of the deposited data

How the results depend on the processing

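Of the 44 called members, 24 that rose and 2 that fell kept their call in each of the 15 alternatives that tested them. Calls were lost most often without Epor-eGFP+ library 0 (17 calls) and Epor-eGFP- library 0 (13 calls), against 5 without each of the other 4. Leaving out a library in turn gave 24 to 40 members higher and 3 to 5 lower, 19 to 25 pathway genes outside the symbols higher and 1 to 2 lower, a fold of the members' summed FPKM of 1.09 to 1.16 (1.12 with all), and a difference in the Atp5g1 share of 4.46 to 5.43 percentage points (4.80 with all). Some scalings between libraries moved the medians. The median member log2 fold change was 0.31 with quantile normalization and 0.30 with a common total, where the median of all tested genes moved up by 0.09. With a common total the members' summed fold was 1.202 and the median of the pathway genes 0.37. For 9 members, none of them called, the sign differed between scalings. With the replicate block 42 members rose and 5 fell, and 3 pathway genes fell in place of 1. The block changed the calls of 5 members, named above, and of no other member. Cox4i1 turned to 0.037 with quantile normalization and ran from −0.17 to 0.010 with a library left out (reversed without Epor-eGFP- library 2), and the median of the regulators turned to −0.14 with a minimum of 5 FPKM. That minimum left out Ppargc1b and Tfb1m, which had risen, and the fold changes of the regulators kept were unchanged. The cause of the other changes was not tested. FPKM values hold no read depth, so no counting error could be given.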
